A study of Mus musculus with 3 samples.

Results

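Among the droplet barcodes of mouse mesenteric lymph node, 8733 of 67002 that passed the filters (13.0%) were poor in transcripts of ribosomal protein genes while holding Malat1, and their remaining transcripts are described here. A barcode is the tag shared by all molecules captured in a droplet, and a UMI (unique molecular identifier) is a molecule counted once. A barcode passed with 300 or more detected genes and no more than 10% of UMIs in mitochondrially encoded genes (symbols starting mt-). Those chosen had under 10% of UMIs in genes whose symbol starts Rpl or Rps and at least 0.5% in Malat1, and are called ribosomal-poor. They were set against the 36317 ribosomal-rich barcodes, which met the same filters and the same Malat1 minimum but had 10% or more of UMIs in Rpl and Rps genes. The Rpl and Rps share, the Malat1 share and the mitochondrial share chose the barcodes, so these measures are given as a description. The comparison of the classes was made within each of the 3 libraries and, as the rule chose the classes by the same transcripts, is given as values with no test. Each feeding group is 1 library, so differences between groups have no replicate, and no p-value was computed. All 95% intervals are exact (Clopper-Pearson for shares, conditional binomial for folds) and cover counting error only.

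The libraries came from mice fed by mouth for 4 weeks. The LysoPS-OVA group received 1 µg of ovalbumin, a model food antigen, in nanoparticles of lyso-phosphatidylserine. The Free OVA group received 1 µg of ovalbumin without the particles, and the control group, whose title calls it untreated, received 5 mM citrate buffer. Each library pooled the nodes of 6 animals, so animals cannot be told apart, and strain, age and sex were not given in the labels. After enzymatic digestion of the nodes and depletion of dead cells, each library was loaded with 10000 cells. The labels give the tissue as mesenteric lymph node and the cell type as intestinal cells. Transcripts of the 4 epithelial markers examined summed to between 1.97 and 5.74 CPM (counts scaled to the UMIs outside Rpl, Rps and mt- genes and Malat1) in ribosomal-poor B barcodes and between 7.15 and 10.0 CPM in ribosomal-rich B barcodes. The 9 B cell markers summed to between 16107 and 19179 CPM and to between 15572 and 17910 CPM in the same barcodes, which the rule had selected by 2 of these markers.

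Most messenger RNA of a cell is spliced and lies in the cytoplasm, while the nucleus holds unspliced transcripts and some long noncoding RNAs. Malat1 is a long noncoding RNA retained in nuclear speckles and is abundant in lymphocytes. Transcripts of ribosomal protein genes are short, stable and mostly cytoplasmic, and mitochondrially encoded transcripts lie in mitochondria, outside the nucleus. In 3' droplet data, reads from long introns can be primed at internal runs of adenine, so long genes can gather more UMIs from unspliced RNA when introns are counted.

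The ribosomal-poor barcodes numbered 1748 of 17323 in LysoPS-OVA (10.1%, interval 9.65 to 10.5), 1886 of 23331 in Free OVA (8.08%, 7.74 to 8.44) and 5099 of 26348 in citrate buffer (19.4%, 18.9 to 19.8). These shares divide by all barcodes that passed. In the same order of libraries, 3537, 11573 and 6552 of those had 10% or more Rpl and Rps UMIs but Malat1 below the minimum. They belong to neither class. The ribosomal-rich barcodes numbered 12017, 9712 and 14588, and relative to them LysoPS-OVA, not Free OVA, had the fewest ribosomal-poor barcodes. The order of the libraries also depended on the limit. With under 5% Rpl and Rps UMIs the shares of all passed barcodes were 7.78%, 5.68% and 4.84%, and citrate buffer was lowest. The median Rpl and Rps share of the ribosomal-poor barcodes was 3.17% in LysoPS-OVA, 3.25% in Free OVA and 6.35% in citrate buffer, against 25.8%, 23.5% and 23.8% in the ribosomal-rich barcodes. At the limit itself, 130, 209 and 1105 barcodes lay between 8% and 10%, and 175, 276 and 754 lay between 10% and 12%. The barcodes just below the limit had median UMIs of 2905.5, 2069 and 1460, and those just above it had 4156, 1523 and 1820. The citrate buffer library therefore had no gap between the classes at the limit.

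**Figure D1:**
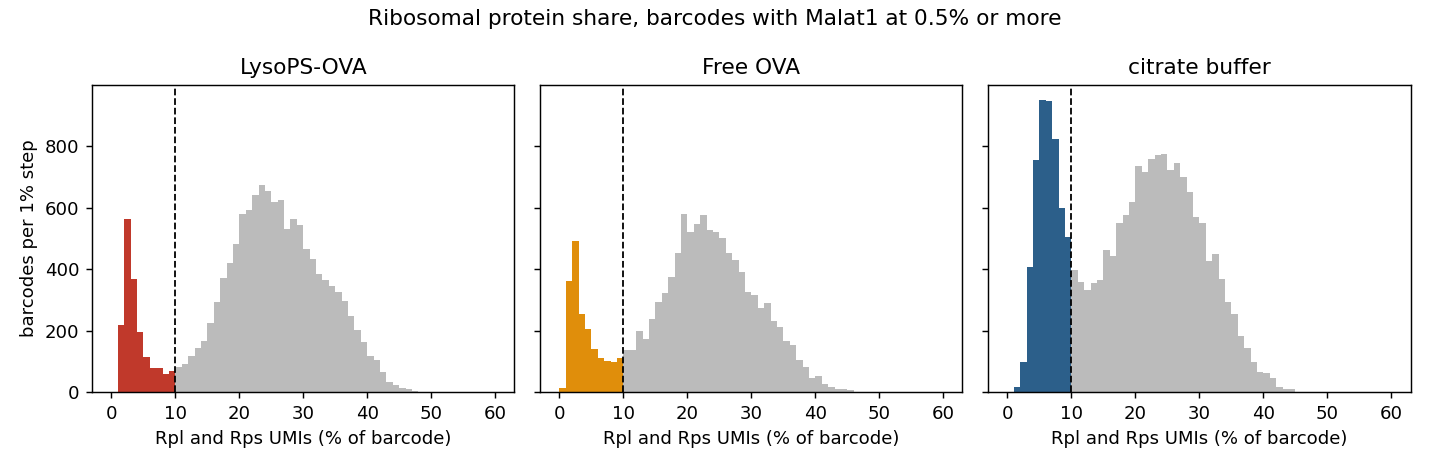
Distribution of the share of UMIs in Rpl and Rps genes (x axis, percent) over barcodes with Malat1 at 0.5% or more (y axis, number of barcodes), 1 panel per library. Coloured bars are ribosomal-poor barcodes, grey bars ribosomal-rich ones, and the dashed line marks 10%; the low group lies near 3% in LysoPS-OVA and Free OVA and runs up to the line in citrate buffer.

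The libraries held 84089686, 81559237 and 96616683 UMIs over 20873, 28660 and 28927 deposited barcodes in LysoPS-OVA, Free OVA and citrate buffer, so each held more barcodes than cells loaded. Pairs of libraries shared 170 (LysoPS-OVA and Free OVA), 166 (LysoPS-OVA and citrate buffer) and 194 (Free OVA and citrate buffer) barcode sequences, of which 3, 4 and 1 were ribosomal-poor in both. Doublets were not removed. The doublet caller Scrublet marked 41 (2.35%), 60 (3.18%) and 358 (7.02%) of the ribosomal-poor barcodes, against 1166 (9.70%), 907 (9.34%) and 3549 (24.3%) of the ribosomal-rich ones.

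The ribosomal-poor barcodes were smaller. Their median was 2301, 2136.5 and 1941 UMIs in LysoPS-OVA, Free OVA and citrate buffer, against 5088, 5394 and 4157 UMIs in the ribosomal-rich barcodes. They held a median of 1276, 1145.5 and 1161 genes, against 1984, 2080 and 1790. Their median mitochondrial share was higher, at 6.83%, 6.15% and 6.17%, against 3.57%, 2.40% and 3.03%. Their median Malat1 share was 2.33%, 2.10% and 1.89%, against 1.79%, 1.68% and 1.54%. The mitochondrial transcripts go against a label of nucleus, and Malat1 was required by the rule, so the barcodes are named here by that rule.

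B barcodes were those with a UMI of Cd79a (a signalling chain of the B cell receptor) or Ebf1 (a transcription factor of the B lineage) and none of Cd3e (a chain of the T cell receptor complex) or Themis (a T cell signalling protein). T barcodes were the reverse. Of the ribosomal-poor barcodes, 914 (52.3%), 1037 (55.0%) and 1691 (33.2%) were B in LysoPS-OVA, Free OVA and citrate buffer, and 267 (15.3%), 260 (13.8%) and 1112 (21.8%) were T. Another 496 (28.4%), 460 (24.4%) and 2110 (41.4%) held genes of both lineages and were left out, as were 4633 (38.6%), 2740 (28.2%) and 6770 (46.4%) of the ribosomal-rich barcodes. Because any UMI assigns a lineage, free RNA in a droplet can place a barcode among those with both. The comparison used 4539, 4656 and 4338 ribosomal-rich B barcodes and 2572, 1374 and 2892 ribosomal-rich T barcodes.

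Counted as molecules per barcode, ribosomal protein genes and short genes were lowest relative to the ribosomal-rich barcodes, genes of middle span were lower by a smaller proportion, and long genes stayed close to the ribosomal-rich level. Ribosomal-poor B barcodes held a mean of 95.9, 103 and 132 Rpl and Rps UMIs in the 3 libraries, against 1162, 1130 and 889 in ribosomal-rich B barcodes, which follows from the rule. Among the remaining genes, those under 10 kb from first to last base gave 293, 468 and 290 UMIs per ribosomal-poor B barcode, against 1001, 1128 and 816 per ribosomal-rich one. Genes of 10 to 100 kb gave 1097, 988 and 895.6 UMIs per barcode, against 1773, 1741 and 1383. Genes of 100 kb or more gave 806, 729 and 616 UMIs per barcode, against 840, 817 and 636. Short and middle genes were thus lower in all 3 libraries, with a shortfall of similar size in UMIs, and long genes differed by far less. The high Free OVA value came with Gm42418, a 1.83 kb gene model that overlaps ribosomal RNA sequence and took 9.72% of the remaining UMIs of its ribosomal-poor B barcodes, against 2.93% in LysoPS-OVA and 4.38% in citrate buffer. Without Gm42418, short genes gave 228, 256 and 211 UMIs per ribosomal-poor B barcode, against 922, 887 and 719.8 per ribosomal-rich one.

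Mitochondrially encoded UMIs per B barcode were 158, 142 and 124, against 199, 145 and 140. Malat1 gave 72.9, 58.3 and 52.8 UMIs per B barcode, against 99.7, 99.8 and 68.9. Neither was higher per barcode in the ribosomal-poor class, so their higher shares stood beside a smaller total. In T barcodes short genes gave 281, 367 and 260 UMIs, against 1012, 1191 and 858, genes of 10 to 100 kb gave 1198, 904 and 937, against 1741, 1805 and 1459, and long genes gave 873, 665 and 637, against 746, 755 and 624. The long-gene count was above the ribosomal-rich value in LysoPS-OVA and citrate buffer and below it in Free OVA. Mitochondrial UMIs per T barcode were 165, 136 and 122, against 192, 141 and 126.

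**Figure D2:**
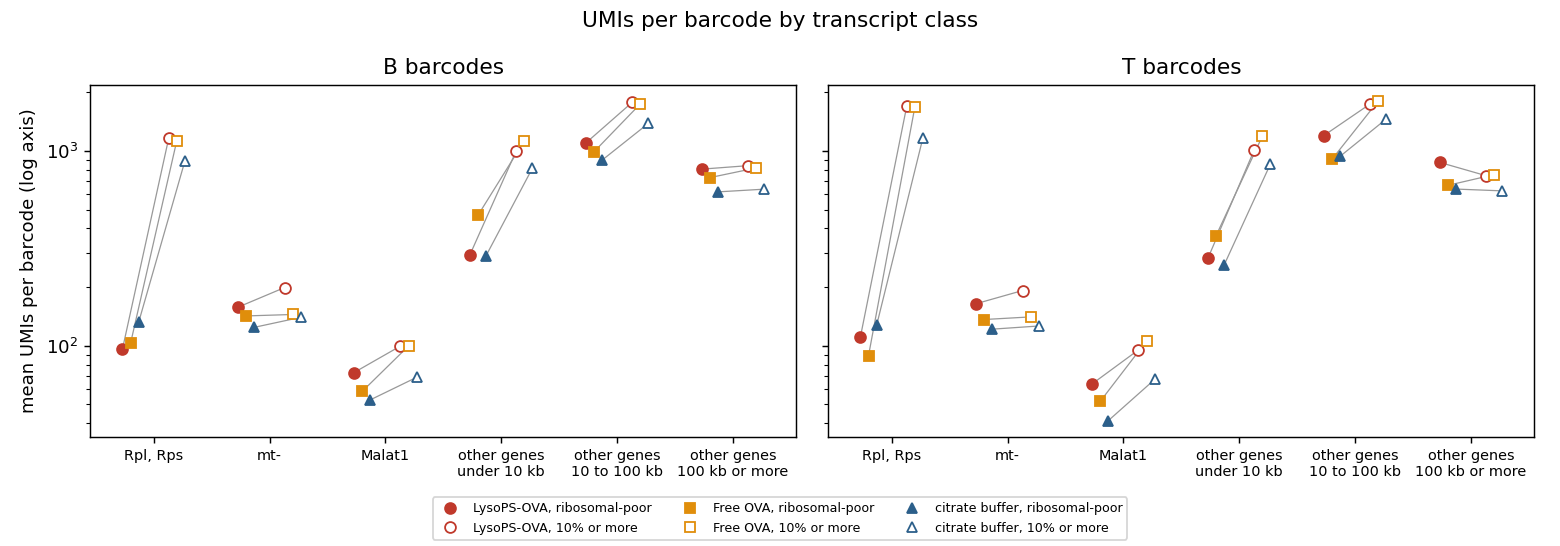
Mean UMIs per barcode (y axis, log scale) by class of transcript in B barcodes (left panel) and T barcodes (right panel), 1 point per library; filled points are ribosomal-poor barcodes and open points ribosomal-rich ones (10% or more). Rpl and Rps genes and other genes under 10 kb are several-fold lower in the filled points and genes of 10 to 100 kb are lower by less, while mt- genes and genes of 100 kb or more lie close together.

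A small set of the ribosomal-poor barcodes had few mitochondrial UMIs as well. Under 2% mitochondrial UMIs were found in 46, 66 and 51 B barcodes and in 7, 18 and 23 T barcodes of LysoPS-OVA, Free OVA and citrate buffer. Genes of 100 kb or more took 38.9%, 17.4% and 34.7% of the remaining UMIs in those B barcodes, against 36.6%, 34.5% and 34.2% in the other ribosomal-poor B barcodes. Among these B values the Free OVA one was low, and its 66 barcodes had a median of 884 UMIs. In T barcodes the shares were 32.6%, 25.5% and 33.8%, against 37.3%, 34.7% and 34.8%, so they were lower in all 3 libraries.

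Levels of genes are given as CPM of the remaining UMIs, that is without Rpl, Rps and mt- genes and Malat1, so that the rule does not set them by dilution. The log2 ratio is that of the ribosomal-poor over the ribosomal-rich level, with a pseudocount of 10 CPM. A gene was examined when its higher class had at least 50 CPM and 30 UMIs in every library, and was called lost at a log2 ratio of -1 or less in all 3 libraries and kept at 1 or more in all 3. On this scale a kept gene is one that takes a larger share of what remains. Of 4223 genes examined in B barcodes, 538 (12.7%) were lost and 18 (0.426%) were kept, while 1571 (37.2%) were below 0 and 2224 (52.7%) above 0 in all 3 libraries. Of 4291 genes examined in T barcodes, 650 (15.1%) were lost and 20 (0.466%) kept, with 1665 (38.8%) below 0 and 2086 (48.6%) above 0. With a library left out, which makes a call easier by construction, 31 genes were kept in B barcodes without LysoPS-OVA and 47 without Free OVA. In T barcodes 33 were kept without Free OVA and 121 without citrate buffer.

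The balance of kept and lost genes depended on the scale. The median gene stood at 0.18 log2 in B barcodes and 0.15 in T barcodes, and as CPM of all UMIs it stood at 0.41 and 0.49. On that scale 84 genes were kept and 332 lost in B barcodes, and 480 were kept and 384 lost in T barcodes. As plain UMIs per barcode, 242 genes (5.73%) were higher and 3336 (79.0%) lower in all 3 libraries in B barcodes, and 314 (7.32%) were higher and 2812 (65.5%) lower in T barcodes. Most transcripts were therefore fewer per ribosomal-poor barcode, and the ratios give how unequal the shortfall was between genes.

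Gene span ordered the ratios. In the shortest decile of genes of B barcodes (up to 6.30 kb, median 3.67 kb) the median log2 ratio was -1.38 and 67.1% of genes were lost. In the second decile the median was -0.93, and in the fifth it was 0.09. In the longest decile (157.56 kb or more, median 236.63 kb) the median was 0.65, 1 gene was lost (0.236%) and 11 were kept (2.60%). The per-library medians of the shortest decile were -1.47, -1.40 and -1.26 in LysoPS-OVA, Free OVA and citrate buffer, and those of the longest decile were 0.69, 0.64 and 0.65. The T barcodes ran from -1.58 in the shortest decile, with 71.2% lost, to 0.81 in the longest, with 0 lost and 15 kept (3.50%).

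Across genes, the Spearman rank correlation between span and ratio was 0.815 in B and 0.822 in T barcodes, given as a description because the genes share libraries and denominators. The coefficient was 0.655 and 0.660 for summed exon length and 0.575 and 0.586 for the number of exons. Within quintiles of exon length, span still gave a coefficient of 0.567 to 0.731 in B and 0.564 to 0.739 in T barcodes. The 30 single-exon genes examined in B barcodes had a median of -1.31 and the 29 in T barcodes a median of -1.47.

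**Figure D3:**
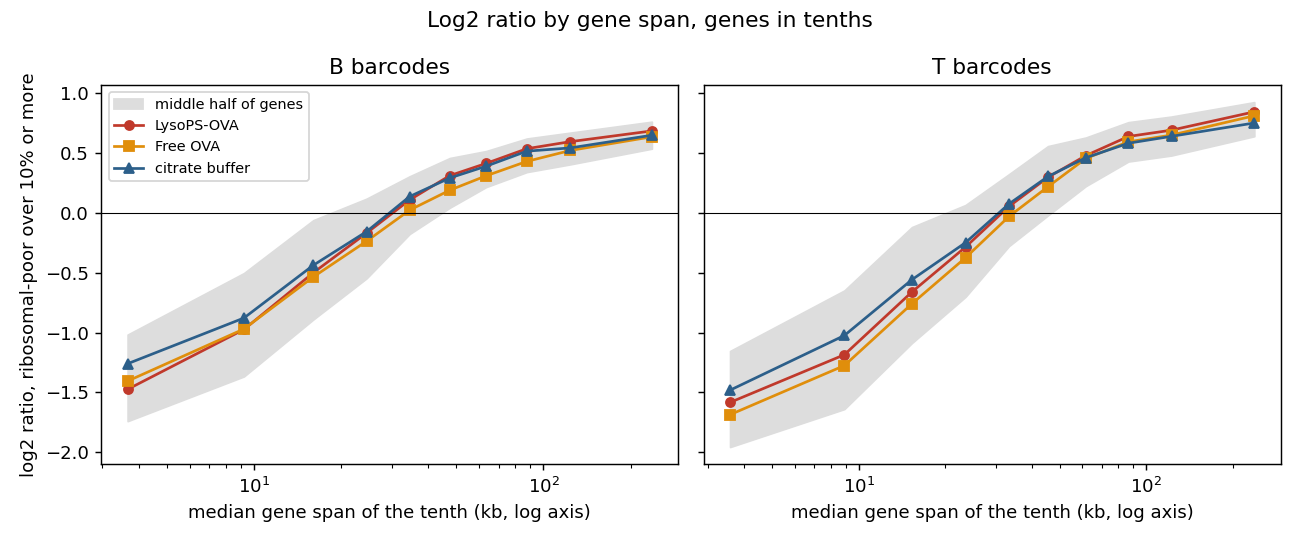
Median log2 ratio of ribosomal-poor over ribosomal-rich level (y axis) by decile of gene span, drawn at the median span of the decile (x axis, kb, log scale), in B barcodes (left panel) and T barcodes (right panel), 1 line per library. The grey band holds the middle 50% of genes by their median over libraries; the medians over libraries climb from -1.38 to 0.65 in B and from -1.58 to 0.81 in T barcodes and lie close together.

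B and T barcodes lost much the same genes. Of 3693 genes examined in both, 464 were lost in both, which is 86.2% of the B losses and 71.4% of the T losses. Kept in both were 3 genes, Plcl1, Fmnl2 and Trps1, of the 18 kept in B and the 20 kept in T barcodes. B and T barcodes are separate droplets of the same libraries, so this likeness shares library and depth.

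Components of the translation machinery outside the Rpl and Rps names had the lowest median over libraries of the gene lists, with 17 of 25 lost in B and 19 of 25 in T barcodes and all 25 below 0 in both. All 25 passed the filter, and their median was -1.92 in B and -2.21 in T barcodes, where all examined genes had 0.18 and 0.15. The second span decile, which holds their median span of 10.5 kb, had medians of -0.93 and -1.14, with 37.2% and 45.5% lost. Fau encodes a protein of the small ribosomal subunit fused to a ubiquitin-like part, and its name is outside the rule. It stood at 1176, 1338 and 1704 CPM in ribosomal-poor B barcodes of LysoPS-OVA, Free OVA and citrate buffer, against 9584, 9396 and 8801 in ribosomal-rich ones (log2 -3.02, -2.80 and -2.36). Every ribosomal-poor value lay below every ribosomal-rich one, which the choice of Fau among the lowest ratios made likely.

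Tpt1, the translationally controlled tumour protein, stood at 1512, 1273 and 2047 CPM in ribosomal-poor T barcodes, against 17287, 14993 and 13529 in ribosomal-rich T barcodes (log2 -3.51, -3.55 and -2.72). Eef1b2, an elongation factor subunit, stood at 221, 246 and 288 CPM in ribosomal-poor T barcodes, against 2259, 2209 and 2017 (log2 -3.29, -3.11 and -2.77). The classes did not overlap for either gene, which their choice among the lowest ratios made likely, and citrate buffer had the ratio nearest 0 for both. Span did not order the members of the group fully. Eif3a, an initiation factor subunit spanning 29.5 kb, had log2 ratios of -0.26, -0.19 and -0.18 in B barcodes, and Eif4a2, an initiation factor helicase of only 6.69 kb, had -0.39, -0.49 and -0.12. Eif3h, the member with the longest span at 79.0 kb, was lost at -1.75, -1.56 and -1.38.

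Genes for the respiratory chain split by where they are encoded. Of 33 nuclear-encoded subunits 31 were lost in B and 32 in T barcodes, with medians of -1.82 and -2.14. The shortest span decile, which holds their median span of 5.49 kb, had medians of -1.38 and -1.58, with 67.1% and 71.2% lost. Cox8a, a subunit of cytochrome c oxidase, stood at 118, 120 and 155 CPM in ribosomal-poor B barcodes, against 614, 589 and 662 in ribosomal-rich ones. Of the 13 mitochondrially encoded genes none was lost, and 11 were above 0 in all 3 libraries in B and in T barcodes, with medians of 0.45 and 0.61. Their share was limited to 10% by the filter and so is a description.

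mt-Co3, another subunit of the same enzyme, stood at 17098, 14332 and 16964 CPM in ribosomal-poor B barcodes, against 12485, 8168 and 11564. Per barcode mt-Co3 gave 37.5, 31.3 and 30.6 UMIs, against 45.1, 30.1 and 32.8, so its number per barcode was lower in LysoPS-OVA and citrate buffer and slightly higher in Free OVA. Transcripts for the mitochondrial ribosome, which are nuclear-encoded, were lost for 11 of 14 in B and 14 of 14 in T barcodes (15 genes in the list), with medians of -1.54 and -1.79. The second span decile, which holds their median span of 8.06 kb, had medians of -0.93 and -1.14, with 37.2% and 45.5% lost.

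**Figure D4:**
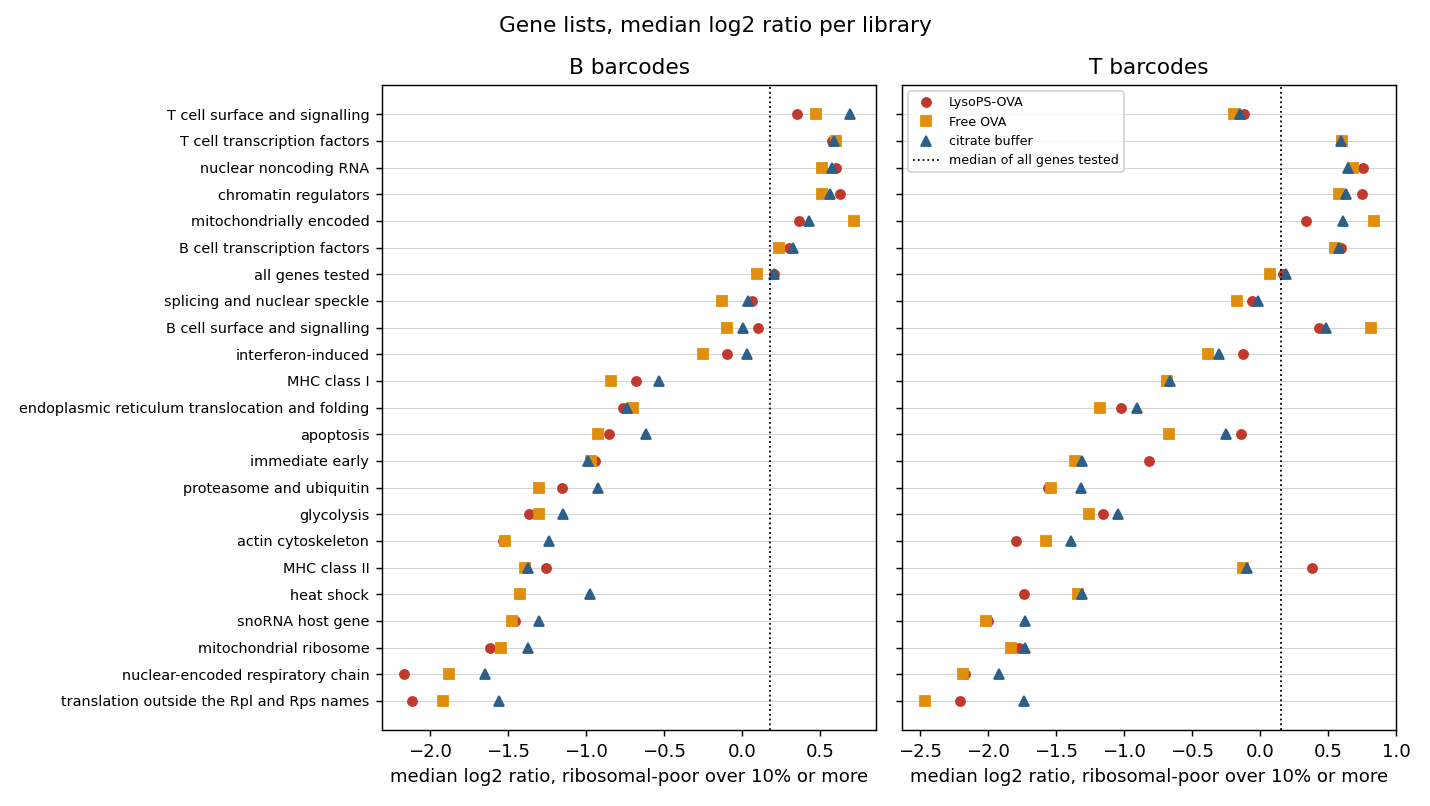
Median log2 ratio of ribosomal-poor over ribosomal-rich level (x axis) for each gene list (y axis) in B barcodes (left panel) and T barcodes (right panel), 1 point per library; the dotted line is the median of all examined genes. Translation, respiratory chain, mitochondrial ribosome and actin lists lie far left of it, and chromatin regulators and nuclear noncoding RNAs lie right of it.

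Actin cytoskeleton genes followed, with 13 of 21 lost in B and 15 of 21 in T barcodes (medians -1.37 and -1.57). Tmsb4x, which binds actin monomers, stood at 2413, 3096 and 3509 CPM in ribosomal-poor B barcodes, against 11071, 10783 and 12589 (log2 -2.19, -1.80 and -1.84). Lcp1, an actin-bundling protein whose gene spans 99.7 kb, was nearly level, at log2 -0.02, -0.19 and -0.04. Of the 14 glycolysis genes 7 passed in B and 10 in T barcodes, and 5 were lost in each. Gapdh, a glycolytic enzyme, had log2 ratios of -2.29, -2.18 and -1.66 in B barcodes. Proteasome and ubiquitin genes were lost for 9 of 19 in B and 12 of 19 in T barcodes (medians -1.15 and -1.37). Their median span of 10.1 kb lies in the second span decile, where 37.2% and 45.5% of all examined genes were lost (medians -0.93 and -1.14). Endoplasmic reticulum genes for protein translocation and folding were lost for 8 of 20 in B and 10 of 21 in T barcodes (22 in the list). In the third span decile, which holds the median spans of the glycolysis and endoplasmic reticulum lists, 15.2% and 20.5% of all examined genes were lost. The actin list, with a median span of 12.3 kb, lay in the second decile in B and the third in T barcodes.

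Antigen presentation was uneven by gene. Of 10 MHC class II genes 7 were lost in B barcodes and 9 were below 0, with a median of -1.37. Their median span of 9.81 kb lies in the second span decile, where 37.2% of all examined genes were lost (median -0.93). Cd74, the invariant chain of MHC class II, stood at 5048, 3665 and 3474 CPM in ribosomal-poor B barcodes, against 13478, 11144 and 10241 (log2 -1.42, -1.60 and -1.56). Ciita, the transactivator that switches these genes on, was the 1 member above 0, at 604, 474 and 585 CPM against 480, 427 and 507 (log2 0.33, 0.15 and 0.20). Of 13 MHC class I genes 2 of the 12 that passed were lost in B and 4 of 13 in T barcodes, and B2m, the light chain of class I, stood at log2 -1.54, -1.61 and -1.53 in T barcodes. In the shortest span decile, which holds the class I median spans, 67.1% and 71.2% of all examined genes were lost.

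The receptor chains named here were below 0, while most transcription factors of the same lineage were above it. The genes that assign lineage are among those given. Since a B barcode needs a UMI of Cd79a or Ebf1, and a T barcode a UMI of Cd3e or Themis, the values of these 4 genes are tied to the rule. Cd79a stood at 736, 552 and 522 CPM in ribosomal-poor B barcodes, against 2648, 2223 and 2168 (log2 -1.83, -1.99 and -2.03). Its partner Cd79b, which the rule did not use, had log2 ratios of -1.35, -1.53 and -1.36. Ebf1 stood at 7077, 6635 and 6645 CPM, against 4970, 4504 and 4702 (log2 0.51, 0.56 and 0.50). Bcl11a, a transcription factor of early B cell development, stood at 1755, 1397 and 1349 CPM, against 1008, 825 and 844 (log2 0.79, 0.75 and 0.67).

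Per barcode Bcl11a was nearly level, at 3.85, 3.05 and 2.43 UMIs against 3.64, 3.04 and 2.39, and Ebf1 was lower, at 15.5, 14.5 and 11.98 against 18.0, 16.6 and 13.3. Cd79a gave 1.62, 1.21 and 0.94 UMIs per barcode, against 9.57, 8.19 and 6.15. Ebf1 and Bcl11a transcripts were thus near the ribosomal-rich number while Cd79a was several-fold below it. Of 22 B cell transcription factors 14 were above 0 and 7 below, with a median of 0.30, where 52.7% of all examined genes were above 0. Their median span was 94.2 kb, and all examined genes of the eighth span decile, which holds it, had a median of 0.49. Spi1, which regulates myeloid and B cell genes from a 33.4 kb gene, was among the low ones at log2 -0.56, -0.79 and -0.94. The 30 B cell surface and signalling genes (median span 25.1 kb) had a median of 0.00, with 4 lost. The fourth span decile, which holds that span, had a median of -0.18. Ly6d, a surface protein from a 1.56 kb gene, was the farthest below 0 (log2 -2.20, -2.31 and -2.36).

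In T barcodes Cd3d, a chain of the T cell receptor complex, stood at 271, 141 and 192 CPM in ribosomal-poor barcodes, against 988, 866 and 949 (log2 -1.83, -2.54 and -2.25). Cd3e, which the rule used, stood at 436, 318 and 368 CPM, against 908, 889 and 838 (log2 -1.04, -1.46 and -1.16). Themis, which the rule also used, stood at 1847, 1788 and 2010 CPM, against 1088, 1098 and 1111 (log2 0.76, 0.70 and 0.85). Satb1, a chromatin organiser of thymocytes and T cells, was likewise above 0 (log2 0.69, 0.87 and 0.89), as was Tox, a transcription factor of T cell development (log2 1.34, 1.01 and 0.85). Lef1 and Tcf7, factors of naive T cells, were near 0, at log2 -0.02, 0.12 and 0.42 for Lef1 and -0.04, -0.16 and 0.01 for Tcf7. Of the 21 T cell transcription factors that passed 17 were above 0 (24 in the list, median 0.60), where 48.6% of all examined genes were. The ninth span decile, which holds their median span of 114 kb, had a median of 0.66. Of 33 T cell surface and signalling genes 6 were lost, 16 were below 0 and 10 above, with a median of -0.11 that turned to 0.21 as CPM of all UMIs. The fourth span decile, which holds their median span of 22.4 kb, had a median of -0.28.

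Chromatin regulators took a larger share, though none by the 2-fold in every library that the call asked for. Of 32 chromatin regulators that passed in B barcodes (35 in the list) 31 were above 0 in all 3 libraries, with a median of 0.57, and in T barcodes 33 of 35 were, with a median of 0.64. The background is the 52.7% and 48.6% of all examined genes above 0. The list had a median span of 116 kb in B and 115 kb in T barcodes, and all examined genes of the ninth span decile, which holds those spans, had medians of 0.56 and 0.66, so the list stood where genes of its span stood. Kdm6a, a histone demethylase, stood at 312, 317 and 299 CPM in ribosomal-poor B barcodes, against 149, 164 and 175 (log2 1.02, 0.91 and 0.73). Kmt2c, a histone methyltransferase, had log2 ratios of 0.91, 0.78 and 0.69.

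Nuclear noncoding RNAs other than Malat1 were above 0 for 7 of the 9 that passed in B and 9 of 10 in T barcodes (20 in the list, medians 0.58 and 0.64). Neat1, which builds nuclear paraspeckles, stood at 258, 170 and 205 CPM in ribosomal-poor B barcodes, against 115, 106 and 104 (log2 1.09, 0.64 and 0.92). Malat1 on the same scale, where the rule sets only its minimum, was nearly level: log2 0.27, -0.02 and 0.27 in B and -0.01, -0.08 and -0.02 in T barcodes. Splicing and speckle genes were balanced in B barcodes, with 13 above and 13 below 0 of 30 and a median of 0.03, and in T barcodes the median was -0.09, turning to 0.28 as CPM of all UMIs. Host genes of small nucleolar RNAs, whose spliced transcripts can leave the nucleus, were lost for 5 of 6 in B and 6 of 6 in T barcodes (16 in the list). Their medians were -1.46 and -1.82. The shortest span decile, which holds their median span of 2.67 kb, had medians of -1.38 and -1.58. Gas5 stood at 169, 162 and 193 CPM in ribosomal-poor B barcodes, against 567, 544 and 623.

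Immediate early genes were low as well, though less so than genes of their span. Of 17 immediate early genes that passed in B barcodes (29 in the list) 5 were lost and 15 were below 0, with a median of -0.97, and in T barcodes 7 were lost and 16 below 0, with a median of -1.31. Their median span was 3.95 kb. All examined genes of the shortest span decile, which holds that span, had medians of -1.38 in B and -1.58 in T barcodes, with 67.1% and 71.2% lost. Jund, an AP-1 subunit from a 1.67 kb gene, stood at 223, 235 and 145 CPM in ribosomal-poor B barcodes, against 683, 571 and 456. Heat shock genes were lost for 4 of 8 in B and 5 of 9 in T barcodes (14 in the list, medians -1.39 and -1.34). Their median span of 10.5 kb lies in the second span decile, where 37.2% and 45.5% of all examined genes were lost (medians -0.93 and -1.14). Of the 19 apoptosis genes 7 passed in B barcodes, with 4 below 0 and 3 above, and 10 passed in T barcodes, with 6 below and 2 above. Bcl2, a survival gene spanning 176 kb, was above 0 in B barcodes (log2 0.72, 0.95 and 0.78), while Bax, its 5.20 kb death-promoting relative, was below (log2 -1.15, -1.21 and -1.20). Mcl1, another survival gene, spanning 4.39 kb, was also below (log2 -1.16, -1.25 and -0.90). Interferon-induced genes had a median of -0.10 in B barcodes (9 of 30 passed) and -0.28 in T barcodes (18 of 30 passed), the T value turning to 0.059 as CPM of all UMIs. Cell cycle genes gave only 2 of 20 above the filter in either lineage.

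The few kept genes were mostly long, and some rested on few barcodes. Fmnl2, a formin that builds actin filaments (276 kb), stood at 261, 142 and 164 CPM in ribosomal-poor B barcodes, against 22.2, 19.9 and 25.6 in ribosomal-rich ones (log2 3.07, 2.35 and 2.29). Its UMIs came from 54, 40 and 70 ribosomal-poor B barcodes. With each barcode thinned to 500 UMIs its median log2 ratio was 1.32 in B barcodes, where it had been 2.35, and 1.25 in T barcodes, where it had been 2.11; without its richest barcode, an alternative added after the data were seen, the T value was 1.21. Trps1, a GATA-type transcriptional repressor (236 kb), was spread more widely, over 349, 390 and 518 barcodes, at 449, 455 and 390.5 CPM against 215, 217 and 172 (log2 1.03, 1.03 and 1.14). In T barcodes Plcl1, a phospholipase C-like protein (348 kb), stood at 261, 224 and 242 CPM, against 81.2, 79.3 and 92.7. Ext1, which builds heparan sulphate chains (282 kb), stood at 734, 655 and 681 CPM in ribosomal-poor T barcodes, against 307, 233 and 299 (log2 1.23, 1.45 and 1.16). The classes did not overlap for any of these 4 genes, which were chosen for their high ratios in every library, so this is no separate result.

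The short kept genes in B barcodes were antibody and haemoglobin genes. Jchain, the joining chain of secreted antibody (8.08 kb), stood at 526, 1319 and 373 CPM in ribosomal-poor B barcodes, against 53.7, 253 and 132. A lone barcode held 970 of its 1056 UMIs in LysoPS-OVA, 1757 of 2988 in Free OVA and 450 of 1138 in citrate buffer. Its median log2 ratio of 2.33 turned to -0.36 with under 5% against 15% or more Rpl and Rps UMIs and to -0.49 with other lineage genes (Ms4a1 or Pax5, Cd3d or Skap1), so neither its call nor its direction held there. Ighg2c and Ighg2b, antibody constant regions, and Hba-a1, a haemoglobin chain, were the other short kept genes. The 6 plasma cell markers summed to 654, 1483 and 510 CPM in ribosomal-poor B barcodes, against 518, 676 and 562. The 6 red cell and platelet markers summed to 609, 9788 and 2953 CPM, against 463, 476 and 194. Their part in the kept calls was not tested.

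Summed markers listed for other lineages also differed between the classes. The 11 T cell markers, of which Cd3e and Themis are at 0 by the rule, summed to 621, 647 and 1233 CPM in ribosomal-poor B barcodes, against 381, 310 and 651. The 9 stromal markers summed to 970, 870 and 980 CPM, against 625, 614 and 622, and in LysoPS-OVA Col3a1, Pdpn and Lyve1 were at 0 in the ribosomal-poor B barcodes. The 13 dendritic cell and macrophage markers summed to 589, 665 and 633 CPM, against 1010, 1090 and 1256. In T barcodes the 9 B cell markers summed to 508, 624 and 789 CPM, against 393, 334 and 534, with Cd79a and Ebf1 at 0 by the rule, and the stromal markers summed to 637, 667 and 608, against 424, 401 and 417. Only 3 of the 9 stromal markers were seen in ribosomal-poor T barcodes of LysoPS-OVA and 4 in Free OVA. Col1a2, Col3a1 and Cdh5 were at 0 in both. The stromal sums there rest on few genes and do not show stromal RNA. Of 17 T cell transcription factors that passed in B barcodes 16 were above 0 and 1 below (median 0.62, median span 114 kb). Bach2, Ets1, Foxp1 and Ikzf1 among them are also in the list of B cell transcription factors. All examined genes of the ninth span decile, which holds that span, had a median of 0.56. Of 15 T cell surface and signalling genes 9 were above and 4 below (median 0.70, 64.4 kb), where the seventh span decile had 0.39. Among all examined genes 52.7% were above 0. Ikzf2, a transcription factor of regulatory T cells (156 kb), had the highest median of both lists. It stood at 84.2, 95.8 and 231 CPM, against 23.1, 24.5 and 72.3. A lone barcode held 19 of its 169 UMIs in LysoPS-OVA, 27 of 217 in Free OVA and 49 of 703 in citrate buffer. The part of these transcripts in the ratios was not tested.

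**Figure D5:**
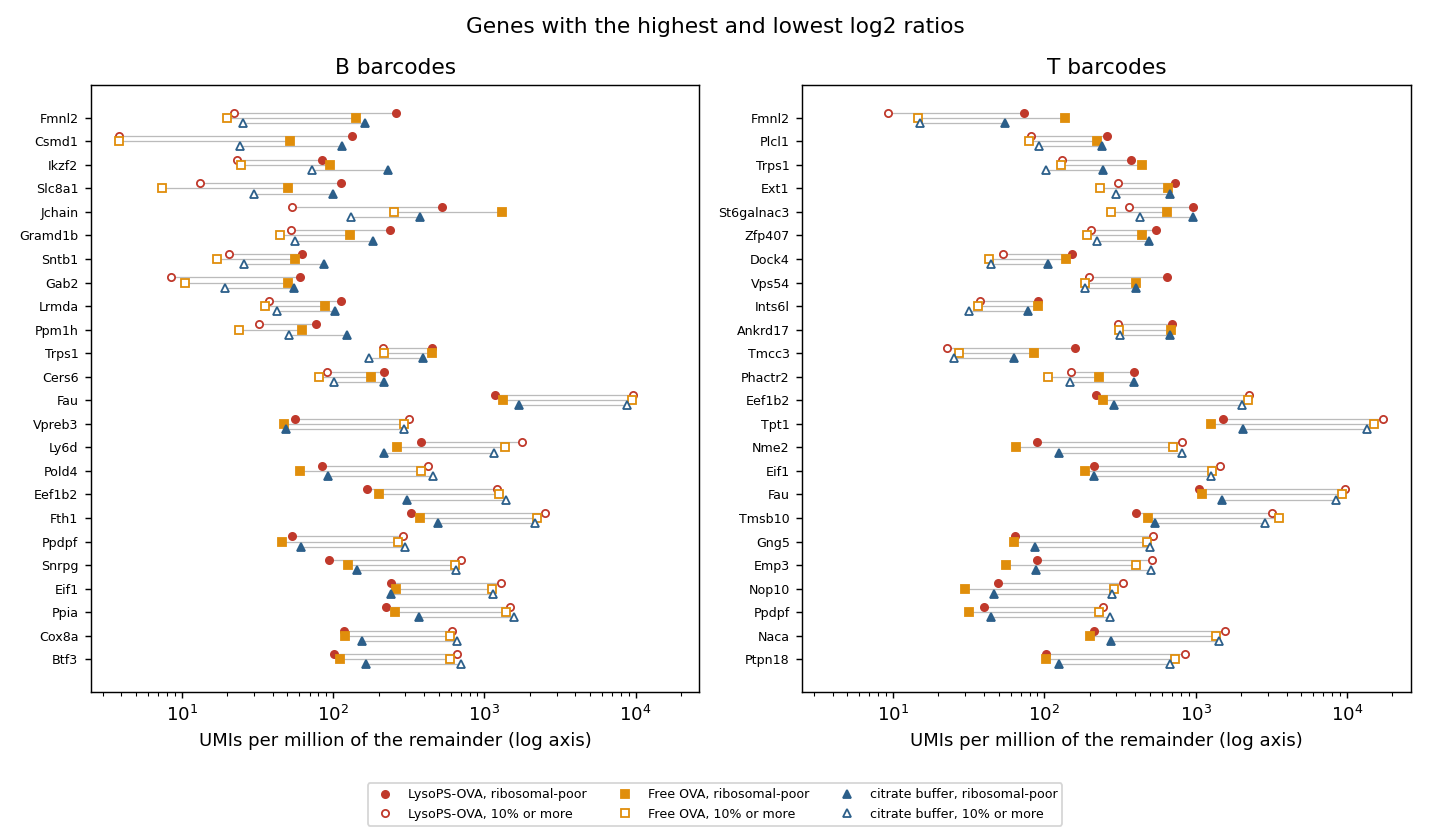
Level in CPM of the remaining UMIs (x axis, log scale) of the genes with the 12 highest and 12 lowest ratios (y axis) in B barcodes (left panel) and T barcodes (right panel), 1 point per library; filled points are ribosomal-poor barcodes and open points ribosomal-rich ones. The filled points of each gene lie wholly to one side of the open points, which choosing genes by their ratio in every library made likely.

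The Rps prefix also catches genes that are no part of the ribosome. The 10 genes named Rps6k, which encode ribosomal S6 kinases, made up 2.66%, 2.36% and 1.53% of the Rpl and Rps sum in ribosomal-poor B barcodes, against 0.229%, 0.239% and 0.234% in ribosomal-rich ones. Rps6ka3, a kinase of growth signalling, and the other 2 that passed in B barcodes had a median log2 ratio of 0.63, against 0.18 for all examined genes. Their median span was 158 kb, and genes of the longest span decile, which holds it, had a median of 0.65. Of the 4 that passed in T barcodes 3 were above 0 and 1 below. Leaving the Rps6k genes out of the sum gave shares of ribosomal-poor barcodes of 10.1%, 8.12% and 19.5%.

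The 3 diets were then compared within the ribosomal-poor barcodes, as a difference between libraries with no replicate. Comparisons with citrate buffer share that library. In B barcodes, 15 of 4162 genes (0.36%) were higher and 31 (0.745%) lower by a log2 of 1 in LysoPS-OVA than in citrate buffer, and 9 and 11 of the same genes passed that difference among ribosomal-rich B barcodes. For Free OVA over citrate buffer 16 of 4068 (0.393%) were higher and 39 (0.959%) lower, of which 9 and 17 passed among ribosomal-rich barcodes. For LysoPS-OVA over Free OVA 30 of 3913 (0.767%) were higher and 13 (0.332%) lower, of which 1 and 6 did.

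In T barcodes the counts were 62 higher (1.44%) and 30 lower (0.698%) of 4298 for LysoPS-OVA over citrate buffer. They were 29 higher (0.721%) and 62 lower (1.54%) of 4022 for Free OVA over citrate buffer, and 81 higher (2.02%) and 24 lower (0.598%) of 4013 for LysoPS-OVA over Free OVA. Of these genes 6 and 12, 4 and 11, and 1 and 3 also passed among ribosomal-rich T barcodes. The T sums rest on 267, 260 and 1112 barcodes.

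Nr3c2, the mineralocorticoid receptor, stood at 188, 254 and 28.2 CPM in the ribosomal-poor B barcodes of LysoPS-OVA, Free OVA and citrate buffer. The fold over citrate buffer was 6.67 (5.27 to 8.54) for LysoPS-OVA and 8.99 (7.16 to 11.4) for Free OVA, and among ribosomal-rich B barcodes it was 5.97 and 8.38. Vmn2r96, annotated as a vomeronasal receptor, stood at 503, 232 and 87.0 CPM in the same order of libraries. The fold of LysoPS-OVA over citrate buffer was 5.78 (5.05 to 6.64), and 5.46 among ribosomal-rich barcodes. Fosb, an AP-1 subunit, stood at 27.9, 60.5 and 9.52 CPM, and its fold of Free OVA over citrate buffer was 6.35 (4.23 to 9.84), with 7.95 among ribosomal-rich barcodes. For these genes the library difference was seen in both classes of barcode.

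Ctla4, an inhibitory receptor of T cells, stood at 495, 171 and 102 CPM in ribosomal-poor T barcodes of LysoPS-OVA, Free OVA and citrate buffer, and at 343, 294 and 190.5 in ribosomal-rich ones. The fold of LysoPS-OVA over citrate buffer was 4.85 (4.06 to 5.81) in ribosomal-poor and 1.80 in ribosomal-rich T barcodes. Some other large T differences came mostly from a single barcode, which gave 113 of the 117 UMIs of Nrg1 and 62 of the 67 of Lyz2 in LysoPS-OVA. For Adgrl3 in Free OVA a lone barcode gave 78 of 119 UMIs, and without it the level was 81.4 CPM, against 6.37 CPM in citrate buffer. In B barcodes a lone barcode gave 204 of 517 UMIs of Pcdh15 in LysoPS-OVA.

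Of all genes examined between LysoPS-OVA and citrate buffer, 51% were above 0 and 49% below in ribosomal-poor B barcodes (median log2 0.007), and 51.3% were above 0 in T barcodes (median 0.011). Among gene groups in ribosomal-poor B barcodes, the 10 MHC class II genes were all higher in LysoPS-OVA than in citrate buffer, with a median log2 ratio of 0.38, and their median among ribosomal-rich B barcodes was 0.30. The 29 nuclear-encoded respiratory chain genes that passed were all lower, with a median of -0.58, where ribosomal-rich barcodes had -0.11. Translation genes were lower for 22 of 24, with a median of -0.51 and -0.13 among ribosomal-rich barcodes. The ribosomal-poor barcodes of citrate buffer lay closer to the 10% limit, with a median Rpl and Rps share of 6.35%, and the part of that share in these differences was not tested. Immediate early genes were higher for 16 of 17 in B barcodes, with a median of 0.41 and 0.45 among ribosomal-rich barcodes. In T barcodes 14 of 16 were higher, with a median of 0.70 and 0.34 among ribosomal-rich barcodes. Several of these differences were also present in Free OVA over citrate buffer, where all genes had medians of -0.12 in B and -0.11 in T barcodes. In B barcodes respiratory chain genes were lower for 29 of 29 (median -0.42) and translation genes for 22 of 24 (-0.52). Immediate early genes were higher for 14 of 18 (0.24) and MHC class II for 6 of 10 (0.05). In T barcodes 7 of 14 immediate early genes were higher (-0.006).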

How the data were processed

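The authors deposited, per the labels' protocols and the submitters' processing notes, raw UMI counts per gene and barcode from Cell Ranger 7.2.0 against mm10, with 10x 3' v3.1 chemistry. The annotation release, like the intron setting, was not given in the sources used here. Spliced and unspliced molecules were not counted apart, so a share of intron reads cannot be computed. The matrices held 32285 genes, 101 of them named Rpl or Rps and 13 mt-.

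Counts were summed over ribosomal-poor and ribosomal-rich barcodes per library and lineage and scaled to CPM of the remaining UMIs (all but Rpl, Rps, mt- and Malat1), with a pseudocount of 10. Gene span, exons and biotype came from GENCODE M21 (GRCm38/mm10), joined by Ensembl identifier for 32235 genes (99.8%). Library totals were 81559237 to 96616683 UMIs, but the sums per class and lineage set the counting precision. In ribosomal-poor T barcodes of LysoPS-OVA, Free OVA and citrate buffer these were 718793, 575520 and 2362242 UMIs. The ratios and calls were checked on simulated sums with known changes. Scanpy 1.11.5, pandas 2.3.3, scipy 1.17.1, numpy 2.4.6 and matplotlib 3.10.9 were run under Python 3.11.15.

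The barcodes, gene lists and marker lists were chosen with earlier results of these data known. Named genes were, per lineage, those with the 12 highest and 12 lowest ratios by the value nearest 0 over libraries, without antibody, T cell receptor, Rpl, Rps, mt- and haemoglobin genes and unnamed models (of which 4 each). To these came the 4 highest and 4 lowest for each pair of libraries, up to 6 members of each list farthest from 0 and 3 nearest 0, and the genes that assign lineage. The antibody and haemoglobin genes named as short kept genes, and Gm42418, AY036118 and Lars2, were chosen after their values were seen. Alternatives were another scale, pseudocount, level filter, ribosomal, Malat1, gene and mitochondrial limits, other lineage genes, thinning to 500 UMIs per barcode, removal of Scrublet doublets (expected rates 16.7%, 22.9% and 23.1% in LysoPS-OVA, Free OVA and citrate buffer) and each library left out.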

Additional observations from a re-analysis of the deposited data

Results flagged for a closer look

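The mitochondrial limit set aside barcodes that otherwise met the rule, a signal in data that the comparisons do not use. Of barcodes with 300 genes or more and above 10% mitochondrial UMIs, 2924 of 3407 in LysoPS-OVA (85.8%, 84.6 to 87.0), 2462 of 3425 in Free OVA (71.9%, 70.3 to 73.4) and 1523 of 2568 in citrate buffer (59.3%, 57.4 to 61.2) were ribosomal-poor with Malat1 at 0.5% or more. Without the mitochondrial limit, an alternative added after the data were seen, ribosomal-poor barcodes made up 22.5%, 16.3% and 22.9% of all barcodes with 300 genes or more, where the main shares were 10.1%, 8.08% and 19.4%.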

How the results depend on the processing

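The lost genes were steadier than the kept ones. Of 538 lost genes in B barcodes, 332 were called as CPM of all UMIs, and the other alternatives that keep all 3 libraries gave 506 to 700; leaving out a library gave 554 to 609. Of 650 in T barcodes, 384 were called on that scale, the others gave 562 to 797, and leaving out a library gave 695 to 755. The 18 kept genes in B barcodes became 84 as CPM of all UMIs, 43 without the level filter, 39 with under 5% against 15% or more Rpl and Rps UMIs, 43 without the Malat1 minimum on the ribosomal-rich barcodes, 5 after thinning to 500 UMIs (3 of the 18 among them), 8 with other lineage genes (6 of the 18), and 9 with each gene's richest barcode left out, which was added after the data were seen. Leaving Gm42418 and AY036118 out of the scale, also added then, gave 22 kept in B and 28 in T barcodes. Without LysoPS-OVA 31 were kept, without Free OVA 47 and without citrate buffer 23, a range of 23 to 47. The 20 kept in T barcodes became 480 as CPM of all UMIs, 50 with a pseudocount of 1, 113 with under 5% against 15% or more and 69 without the Malat1 minimum, 27 after thinning (8 of the 20 among them), 22 with other lineage genes (10 of the 20), and 28 without LysoPS-OVA, 33 without Free OVA and 121 without citrate buffer. Fewer libraries to pass makes a call easier by construction; the cause of the other shifts was not tested.

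Shares of ribosomal-poor barcodes in LysoPS-OVA, Free OVA and citrate buffer were 7.78%, 5.68% and 4.84% with under 5%, 13.6%, 11.9% and 26.2% with under 15%, 6.56%, 4.42% and 8.65% with Malat1 at 2% or more, 10.8%, 10.4% and 19.9% with 500 genes or more, and 3.02%, 2.93% and 7.91% with at most 5% mitochondrial UMIs. Free OVA had 8.77% without the Malat1 minimum, and without Scrublet doublets LysoPS-OVA had 10.7% and citrate buffer 21.7%.

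Jchain turned to -0.36 log2 in B barcodes with under 5% against 15% or more and to -0.49 with other lineage genes. Between libraries, a pseudocount of 1 gave 60 lower in Free OVA than citrate buffer in B barcodes. In T barcodes it gave 49 lower in LysoPS-OVA than citrate buffer, 110 lower in Free OVA than citrate buffer and 133 higher in LysoPS-OVA than Free OVA. Without each gene's richest barcode 16 were higher in Free OVA than citrate buffer and 14 lower in LysoPS-OVA than Free OVA. As CPM of all UMIs, T medians of splicing, T cell surface and interferon-induced genes turned to 0.28, 0.21 and 0.059. Of 176 list medians under an alternative, 84 stayed within the spread between libraries, 89 moved beyond it and these 3 reversed. As CPM of all UMIs 40 moved and 1 stayed within it. With under 5% against 15% or more 27 moved and 17 stayed, after thinning 19 moved and 25 stayed, and without Scrublet doublets 3 moved and 41 stayed. Of 832 named-gene values under an alternative 661 moved by less than the spread between libraries. These include all 64 values without the level filter and all 64 for each library left out, an outcome fixed in advance. Dropping the filter leaves a ratio unchanged, and a median of fewer libraries stays within their spread. With under 5% against 15% or more, 15 of 64 stayed within the spread, 48 moved beyond it and 1 reversed. No paired analysis was possible because each feeding group is 1 library; the ratio between the classes is already within each library and was given no test, as the rule chose the classes.

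Shallow T sums (260 to 1112 ribosomal-poor barcodes per library) limit what can be seen of low genes there. The Rpl and Rps limit has no gap to sit in for citrate buffer, and lineage by any UMI leaves out many barcodes of both classes. Without an intron count, a larger share of long genes cannot be split into spliced and unspliced RNA.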

Other observations

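Some transcripts that the gene lists do not hold were above 0 in every library, as were 52.7% of all examined genes in B and 48.6% in T barcodes. Among them AY036118, Gm42418 and Lars2 were chosen after their values were seen. AY036118, like Gm42418 a gene model that overlaps ribosomal RNA sequence, had log2 ratios of 0.58, 0.77 and 0.68 in B barcodes of LysoPS-OVA, Free OVA and citrate buffer, and Gm42418 had 0.42, 0.57 and 0.36. Lars2, a mitochondrial leucyl-tRNA synthetase, had 0.66, 0.69 and 0.58. Reads of ribosomal RNA could not be told from reads of the 2 gene models, so the values of AY036118 and Gm42418 are uncertain. Lncpint, a long noncoding RNA, stood at 1067, 858 and 580 CPM in ribosomal-poor T barcodes, against 589, 450 and 309 in ribosomal-rich ones (log2 0.85, 0.92 and 0.89).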
